A study of Mus musculus with 15 samples.

Results

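The transcriptome of the rostral ventrolateral medulla (RVLM) of PRR RVLM-Null mice was set against that of WT mice, at baseline and without DOCA-salt treatment. The comparison takes the 4 Baseline-CRE and the 4 Baseline-WT libraries, 8 of the 15 libraries of the study, and every gene of the table. PRR RVLM-Null mice (the Baseline-CRE group) received AAV2/2 with Cre and GFP in the RVLM, and WT mice (the Baseline-WT group) received the same vector with GFP alone. All 8 carried a floxed *Atp6ap2* allele on the C57BL/6J background, so WT denotes the control virus and not an unaltered gene. Punches were taken 3 weeks after the virus from adult mice on standard chow and chlorinated water. The labels call all animals female but write the baseline genotype as PRRf/y, the hemizygous form. The remaining 3 DOCA-CRE and 4 DOCA-WT libraries came from mice labelled PRRf/f, with the same 2 viruses, after 13 days with a 50 mg deoxycorticosterone acetate (DOCA) pellet and 0.15 M NaCl to drink.

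The (pro)renin receptor (PRR), encoded by *Atp6ap2*, binds renin and prorenin and is also an accessory subunit of the vacuolar H+-ATPase (V-ATPase), the proton pump that acidifies lysosomes and endosomes. The RVLM holds the C1 adrenergic and other neurons that drive sympathetic outflow to the heart and vessels. The comparison describes RVLM transcripts after the Cre virus, given to remove PRR, before DOCA-salt begins. The study did not give the Cre virus to mice without the floxed allele. Effects of Cre itself and of the removal of PRR therefore cannot be told apart here. The vector drives Cre from the CMV promoter, which is not restricted to a cell type. The punch also takes in tissue around the injected site, so untransduced cells may contribute to any value. In such bulk samples, fewer cells of a type and less RNA per cell cannot be told apart.

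Cre removes exon 2 of *Atp6ap2*, which is shown because it is the stretch of the transcript that a recombined cell lacks. Exon 2 is in capitals, between the last 20 bases of exon 1 and the first 20 of exon 3 (Gencode vM21, transcript Atp6ap2-201, exon 2 at chrX:12594761-12594891 on the plus strand of GRCm38).
Atp6ap2: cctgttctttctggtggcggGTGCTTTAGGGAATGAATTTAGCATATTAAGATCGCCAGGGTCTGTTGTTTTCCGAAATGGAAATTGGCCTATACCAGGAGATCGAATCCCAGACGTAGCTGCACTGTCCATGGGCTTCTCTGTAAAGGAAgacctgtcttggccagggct
The exon is 131 of 2324 transcript bases, or 5.64%, and all of it is coding. Its length is not a multiple of 3 (remainder 2). In the full transcript 350 codons precede the stop codon, and with exon 1 joined to exon 3 the first stop in frame follows 23 codons. The deposited counts are per gene, so reads of exon 2 were not analysed here.

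The targeted gene did not differ detectably between the groups. *Atp6ap2* was at 106, 119.9, 123 and 126 CPM in PRR RVLM-Null mice, against 114, 123, 117 and 139 CPM in WT mice. The groups overlapped, and only replicate 1 of the PRR RVLM-Null mice lay below every WT library. The means were 119 ± 9.15 and 124 ± 11.1 CPM (SD, n = 4 each), where CPM are counts scaled for depth over the genes tested, with TMM factors. The log2 difference, PRR RVLM-Null minus WT, was -0.056 (SE 0.13, 95% interval -0.34 to 0.23, adjusted p = 0.923, edgeR quasi-likelihood test). An exact two-sided permutation test over the 8 libraries gave p = 0.543, where 0.0286 is the smallest that 4 against 4 can give. A loss larger than 0.34 on the log2 scale in the whole punch lies outside that interval.

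The other subunits of the V-ATPase were close to the WT level. Of 18 genes for PRR and the pump, 3 were on the higher side and 15 on the lower side, against 48.6% and 51.4% of all genes. The median log2 difference was -0.069, against -0.0069 over all genes tested. Without scaling factors the split was 8 and 10. The groups were separate for 1 of the 18 on the higher side and 2 on the lower side, against 3.89% and 4.39% of all genes. *Atp6ap1*, the companion accessory subunit, was at 161, 168, 148 and 161 CPM in PRR RVLM-Null mice, against 154, 163, 162 and 159 CPM in WT mice. The groups overlapped, with a log2 difference of 0.0014, unadjusted p = 0.989. *Atp6v1g1*, a stalk subunit found in all tissues, was at 58.4, 58.01, 59.1 and 52.1 CPM in PRR RVLM-Null mice, against 64.02, 67.1, 79.2 and 73.7 CPM in WT mice. Every PRR RVLM-Null library was below every WT library (log2 difference -0.32, SE 0.086, unadjusted p = 0.00193, adjusted p = 0.434). *Atp6v1g2*, the neuronal form of that subunit, was at 228, 247, 231 and 276 CPM in PRR RVLM-Null mice, against 185, 220.2, 219 and 208 CPM in WT mice, so the groups separated the other way (log2 difference 0.24, SE 0.13, unadjusted p = 0.0831, adjusted p = 0.548). Among 24 genes of the lysosome, 16 were on the higher side, against 48.6% of all genes, and 8 on the lower side. At an unadjusted p under 0.05 there were 0, against 10.1% of all genes. The groups were separate for 1 of the 24, on the higher side, near the 3.89% of all genes. It was *Ctsb*, the protease cathepsin B (log2 difference 0.15, unadjusted p = 0.0677).

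**Figure D1:**
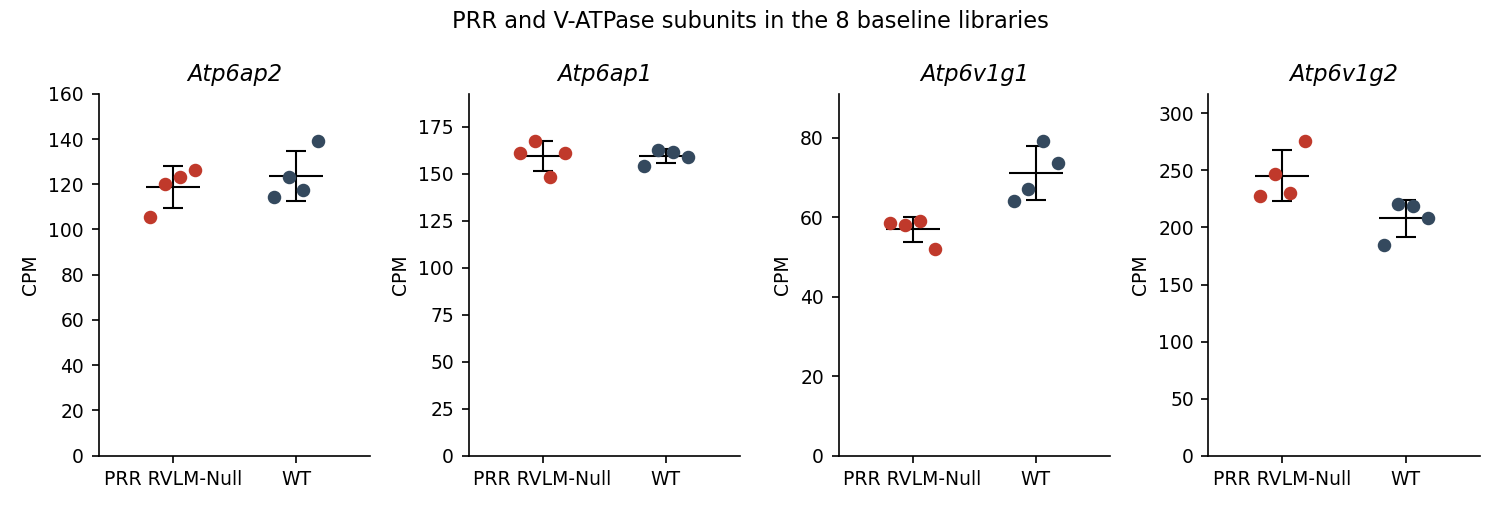
Level in CPM (vertical axes, from 0) of *Atp6ap2*, *Atp6ap1*, *Atp6v1g1* and *Atp6v1g2*, with PRR RVLM-Null libraries left and WT libraries right in each panel. Points are libraries in replicate order, and bars show the mean ± SD (n = 4). The *Atp6ap2* and *Atp6ap1* points overlap between groups, the *Atp6v1g1* points do not and are lower in PRR RVLM-Null mice, and the *Atp6v1g2* points do not and are higher.

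Across the transcriptome no gene passed. Of 14852 protein-coding genes tested, 0 (0%) were called at an adjusted p of at most 0.05 and a 2-fold difference, and 0 at the adjusted p alone, by the edgeR quasi-likelihood test. The smallest adjusted p was 0.434. The count was 0 as well by DESeq2, where the smallest adjusted p was 0.0687, by limma voom (0.0785) and by the likelihood ratio test of edgeR (0.0760). At an unadjusted p under 0.05 there were 1498 genes (10.1%), 722 higher (4.86%) and 776 lower (5.22%) in PRR RVLM-Null mice. The groups did not overlap for 578 genes on the higher side (3.89%) and 652 on the lower side (4.39%). The median absolute log2 difference was 0.14.

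The libraries were of similar depth, with 20310085 to 23966836 counts in PRR RVLM-Null mice and 19053970 to 22356622 in WT mice. Their rank correlations across genes were 0.983 to 0.994 among PRR RVLM-Null libraries, 0.984 to 0.995 among WT libraries and 0.973 to 0.993 between the groups. Replicate 2 of the PRR RVLM-Null mice stood apart at 35.7 on the first principal component, against -2.50, 1.61 and 17.6 for the other PRR RVLM-Null libraries. The WT libraries were at -19.4, -19.2, -21.1 and 7.21, where replicate 4 is the last. A male pattern of *Xist* and Y-linked genes was found in 2 of 4 PRR RVLM-Null and 1 of 4 WT libraries, against a label of female, and the 4 Y-linked genes tested summed to 0.509, 0.256, 171 and 195 CPM in PRR RVLM-Null mice, against 1.68, 0.163, 1.12 and 238 CPM in WT mice. With that pattern as a term, 1288 genes (8.67%) had an unadjusted p under 0.05 and 0 passed. Replicate 4 of the WT mice also held genes of the arachnoid and other connective tissue, chosen here after their values were seen. *Prg4*, which encodes lubricin, was at 0, 0.192, 0.185 and 0 CPM in PRR RVLM-Null mice, against 0, 0, 0.1499 and 15.2 CPM in WT mice, and *Myoc*, which encodes myocilin, was at 0, 0, 0.0616 and 0.07798 CPM in PRR RVLM-Null mice, against 0.0699, 0, 0 and 9.16 CPM in WT mice. The summed level of 10 genes of meninges and fibroblasts was 432, 377, 358 and 389 CPM in PRR RVLM-Null mice, against 436, 331, 515 and 909 CPM in WT mice, highest in that WT library. Of the 10, 8 were on the lower side in PRR RVLM-Null mice (median log2 difference -0.48), against 51.4% of all genes. Of the 8, 2 had an unadjusted p under 0.05, against 5.22% of all genes on that side.

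**Figure D2:**
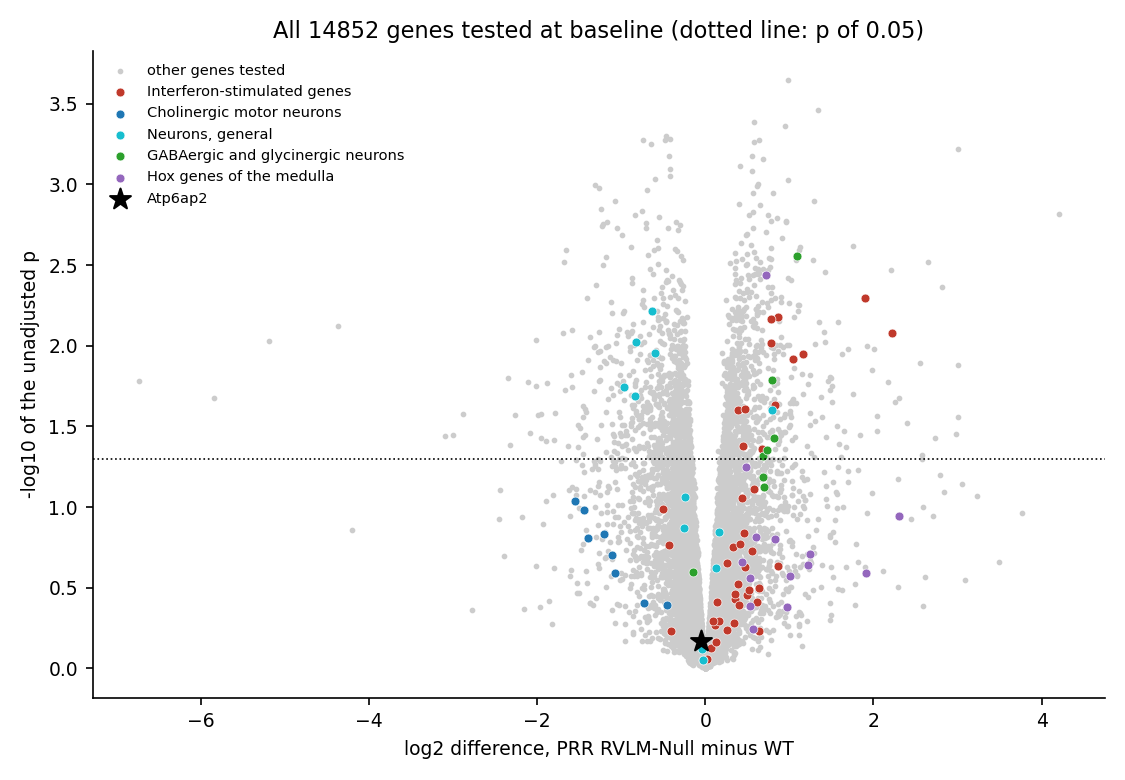
Each of the 14852 genes tested by its log2 difference, PRR RVLM-Null minus WT (horizontal axis), and the -log10 of its unadjusted p (vertical axis), with 5 gene lists in colour and *Atp6ap2* as a star. Interferon-stimulated, GABAergic and Hox genes lie mostly right of 0 and motor neuron genes left of it, while *Atp6ap2* is near 0 on both axes and no gene passed an adjusted p of 0.05.

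Among genes with a higher level in PRR RVLM-Null mice, the smallest p with separate groups belonged to *Lrrc55*. *Lrrc55*, which encodes an auxiliary subunit of the BK potassium channel, was at 9.93, 17.1, 12.2 and 13.2 CPM in PRR RVLM-Null mice, against 5.59, 7.09, 5.92 and 7.94 CPM in WT mice (log2 difference 0.98, SE 0.21, unadjusted p = 0.000226, adjusted p = 0.434). *Cadps2*, which primes dense-core vesicles for release, was at 30.8, 32.4, 45.2 and 52.2 CPM in PRR RVLM-Null mice, against 16.6, 20.8, 16.6 and 29.1 CPM in WT mice (log2 difference 0.95, SE 0.22, unadjusted p = 0.000436, adjusted p = 0.434). *Hs3st2*, a heparan sulfate sulfotransferase, was at 5.79, 12.8, 6.405 and 5.77 CPM in PRR RVLM-Null mice, against 2.796, 4.07, 2.47 and 2.84 CPM in WT mice (log2 difference 1.34, SE 0.30, unadjusted p = 0.000345, adjusted p = 0.434). In each of the 3 the lowest PRR RVLM-Null library was above the highest WT library, and replicate 2 held the highest level of *Lrrc55* and *Hs3st2*. *Megf11*, an EGF-domain membrane protein, *Camkk2*, a calcium-dependent kinase that activates AMPK, and *Celf4*, a neuronal RNA-binding protein, differed by 0.58, 0.58 and 0.55. *Lrrc24*, a leucine-rich repeat protein, and *Zfp618*, a zinc finger protein, differed by 0.63 and 0.69. The adjusted p was 0.434 for all 8.

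The 8 genes with the smallest p on the lower side and separate groups held differences of -0.41 to -0.74. *C9orf72*, whose repeat expansion causes amyotrophic lateral sclerosis in humans, was at 34.9, 32.3, 32.6 and 29.5 CPM in PRR RVLM-Null mice, against 42.8, 45.05, 39.6 and 45.4 CPM in WT mice (log2 difference -0.42, SE 0.10, unadjusted p = 0.000525, adjusted p = 0.434). *Cmbl*, a hydrolase, was at 9.48, 7.99, 10.1 and 7.64 CPM in PRR RVLM-Null mice, against 14.2, 12.6, 17.2 and 14.8 CPM in WT mice (log2 difference -0.74, SE 0.17, unadjusted p = 0.000534, adjusted p = 0.434). *Etfb*, a subunit of the mitochondrial electron transfer flavoprotein, was at 35.1, 33.7, 39.9 and 33.4 CPM in PRR RVLM-Null mice, against 45.8, 46.7, 47.7 and 56.5 CPM in WT mice (log2 difference -0.47, SE 0.11, unadjusted p = 0.000501, adjusted p = 0.434). The groups were separate in all 3, with PRR RVLM-Null mice lower in 4 of 4 libraries. *Etfbl* was at 34.2, 32.8, 39.3 and 31.7 CPM in PRR RVLM-Null mice, against 44.7, 45.6, 46.2 and 55.6 CPM in WT mice and differed by -0.48. Its annotated span overlaps that of *Etfb* on the same strand, so these counts are uncertain. The same holds for *Asnsd1* and *Gm28551*, which overlap and differed by -0.41 and -0.42. *Smim20*, a factor for cytochrome c oxidase assembly, and *Ccdc148*, a coiled-coil protein, differed by -0.44 and -0.64.

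By size of difference, among genes with separate groups, an unadjusted p under 0.05 and a mean of 1 CPM or more in the higher group, 2 interferon-inducible GTPases led the higher side and a glucose transporter and a peptide the lower side. *Gbp10*, an interferon-inducible GTPase, was at 5.41, 0.511, 0.431 and 1.17 CPM in PRR RVLM-Null mice, against 0.0699, 0, 0 and 0.324 CPM in WT mice (log2 difference 4.204, SE 1.099, unadjusted p = 0.00152, adjusted p = 0.434). *Irgm2*, another such GTPase, was at 37.9, 6.07, 6.65 and 7.88 CPM in PRR RVLM-Null mice, against 3.42, 5.62, 3.75 and 4.54 CPM in WT mice (log2 difference 1.76, SE 0.49, unadjusted p = 0.00241, adjusted p = 0.434). For both, replicate 1 of the PRR RVLM-Null mice was far above the other libraries. *Itgal*, a leukocyte integrin chain, *Prdm8*, a transcriptional regulator, and *Drd1*, a dopamine receptor, differed by 1.48, 1.44 and 1.42 at mean levels under 2 CPM. On the lower side *Uts2*, which encodes urotensin II, was at 1.02, 0.192, 2.46 and 2.18 CPM in PRR RVLM-Null mice, against 8.11, 3.503, 4.42 and 7.54 CPM in WT mice (log2 difference -2.02, SE 0.68, unadjusted p = 0.00925, adjusted p = 0.434). *Vipr2*, a receptor for vasoactive intestinal peptide, was at 23.7, 1.02, 15.1 and 3.67 CPM in PRR RVLM-Null mice, against 49.97, 55.6, 42.3 and 26.2 CPM in WT mice (log2 difference -1.99, SE 0.82, unadjusted p = 0.0268, adjusted p = 0.446), with PRR RVLM-Null replicate 2 the lowest of all. *Slc5a1*, a sodium-glucose transporter, *Ccdc172* and *Ppef1*, a phosphatase, differed by -2.08, -2.01 and -1.69, also from low levels.

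Interferon induces a set of antiviral genes through transcription factors that bind the interferon-stimulated response element in their promoters. The promoters of the 3 list members with the smallest p are shown because the core letters of the element occur in each. They are the 250 bases before the start of *Igtp* (chr11:58199306-58199555, plus strand), *Gbp5* (chr3:142496684-142496933, plus strand) and *Gbp7* (chr3:142530086-142530335, plus strand), from RefSeq on GRCm38.p6. Capitals mark the letters GAAANNGAAA on either strand.
Igtp: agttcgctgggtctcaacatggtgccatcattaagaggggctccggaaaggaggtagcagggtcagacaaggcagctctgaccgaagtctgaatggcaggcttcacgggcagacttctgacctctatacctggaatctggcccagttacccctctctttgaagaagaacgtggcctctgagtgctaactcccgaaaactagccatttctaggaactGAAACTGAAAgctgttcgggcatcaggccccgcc
Gbp5: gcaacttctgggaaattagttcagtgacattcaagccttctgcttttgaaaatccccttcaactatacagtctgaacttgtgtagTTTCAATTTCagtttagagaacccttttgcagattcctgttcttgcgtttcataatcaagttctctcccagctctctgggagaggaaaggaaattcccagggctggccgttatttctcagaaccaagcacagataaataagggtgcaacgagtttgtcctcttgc
Gbp7: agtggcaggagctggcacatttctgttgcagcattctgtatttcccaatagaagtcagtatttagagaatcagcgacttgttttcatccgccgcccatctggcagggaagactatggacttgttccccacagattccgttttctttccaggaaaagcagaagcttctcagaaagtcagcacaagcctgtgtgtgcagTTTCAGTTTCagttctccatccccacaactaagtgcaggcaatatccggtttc
Of 32 interferon-stimulated genes tested that matched a promoter entry, 16 (50.0%) held these letters, against 936 of 27025 genes (3.46%) with an entry in windows of the same length. A match is a description of the letters and not a site of binding.

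Interferon-stimulated genes lay mostly above the WT level in PRR RVLM-Null mice, and replicate 1 stood highest. Of 43 tested genes of a list of 46, 39 were on the higher side, against 48.6% of all genes. At an unadjusted p under 0.05 there were 12 higher and 0 lower, against 4.86% and 5.22% of all genes. The groups were separate for 3 of the 43, all on the higher side, against 3.89% of all genes. The median log2 difference was 0.44. The summed level was 656, 332, 423 and 408 CPM in PRR RVLM-Null mice, against 337, 339, 367 and 361 CPM in WT mice. Replicate 1 of the PRR RVLM-Null mice was the highest, replicates 3 and 4 were above every WT library, and replicate 2 was the lowest of the 8.

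Several interferon-inducible GTPases, which attack the vacuoles of intracellular pathogens, held high levels in replicate 1. *Igtp* was at 33.5, 3.64, 5.54 and 7.02 CPM in PRR RVLM-Null mice, against 2.38, 3.99, 3.07 and 3.89 CPM in WT mice (log2 difference 1.903, SE 0.58, unadjusted p = 0.00503, adjusted p = 0.434). *Iigp1* was at 32.2, 1.98, 4.003 and 6.39 CPM in PRR RVLM-Null mice, against 2.45, 1.87, 2.02 and 3.24 CPM in WT mice (log2 difference 2.22, SE 0.74, unadjusted p = 0.00835, adjusted p = 0.434). *Irgm1* was at 43.4, 9.97, 14.2 and 14.3 CPM in PRR RVLM-Null mice, against 9.02, 8.31, 13.7 and 8.67 CPM in WT mice (log2 difference 1.04, SE 0.37, unadjusted p = 0.0121, adjusted p = 0.434). The groups overlapped for each, and replicate 2 of the PRR RVLM-Null mice was within the WT range. The annotated spans of *Igtp* and *Irgm2* overlap on the same strand, so the counts of these 2 genes are uncertain.

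The guanylate-binding proteins are a related family of GTPases, to which *Gbp10* also belongs. *Gbp2* was at 21.95, 5.24, 8.19 and 5.15 CPM in PRR RVLM-Null mice, against 4.403, 5.62, 3.45 and 4.701 CPM in WT mice (log2 difference 1.16, SE 0.41, unadjusted p = 0.0113, adjusted p = 0.434), highest in replicate 1 and with overlap between the groups. *Gbp5* was at 9.54, 3.96, 6.84 and 5.22 CPM in PRR RVLM-Null mice, against 3.84, 4.72, 1.72 and 3.73 CPM in WT mice and *Gbp7* at 28.3, 12.4, 13.1 and 16.2 CPM in PRR RVLM-Null mice, against 10.6, 8.39, 8.39 and 13.5 CPM in WT mice, with log2 differences of 0.87 and 0.78. *Ddx58*, which encodes the RNA sensor RIG-I, was at 10.9, 8.24, 8.68 and 8.97 CPM in PRR RVLM-Null mice, against 7.62, 6.11, 7.79 and 6.48 CPM in WT mice, with separate groups (log2 difference 0.39, SE 0.16, unadjusted p = 0.025, adjusted p = 0.445). *Oasl2*, an oligoadenylate synthetase-like protein, differed by 0.67 and *Ifit1*, which binds foreign RNA, by 0.57. *Isg15*, a ubiquitin-like protein, was near 1 CPM or below in every library (0.62, unadjusted p = 0.389), and *Ifi27* was on the lower side (-0.50, unadjusted p = 0.103). Without replicate 1 of the PRR RVLM-Null mice, 37 of the 43 were still on the higher side, but 3 had an unadjusted p under 0.05 and the median was 0.28. With the sex pattern as a term, 38 were on the higher side and 10 had an unadjusted p under 0.05.

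**Figure D3:**
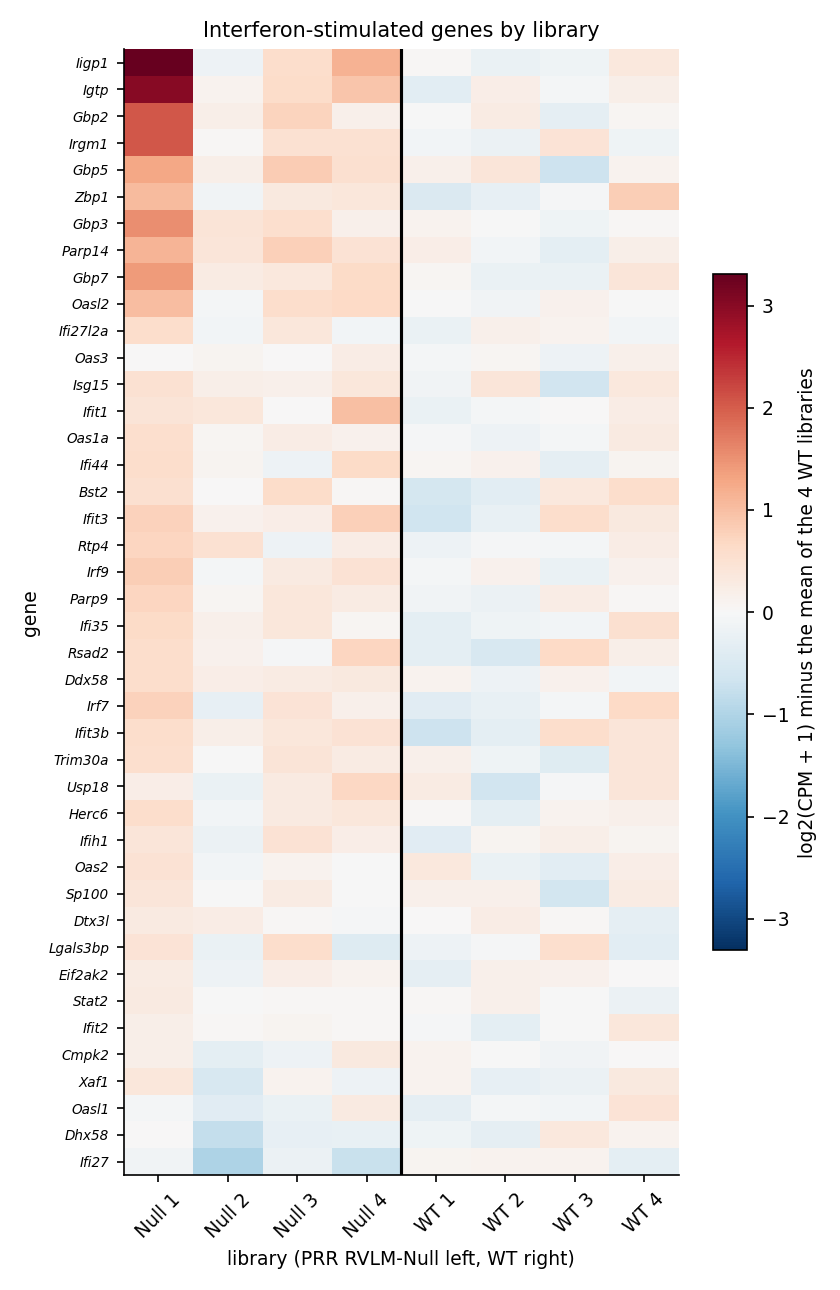
The interferon-stimulated genes tested, 42 of the 43 (rows, ordered by log2 difference) in the 8 baseline libraries (columns, PRR RVLM-Null left of the line and WT right). Colour gives log2(CPM + 1) minus the mean of the 4 WT libraries, red higher and blue lower. Replicate 1 of the PRR RVLM-Null mice is the reddest column, most of all for *Iigp1* and *Igtp*, and replicate 2 is close to the WT columns.

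Genes of antigen presentation were also highest in replicate 1 of the PRR RVLM-Null mice. Of 19 tested, 18 were on the higher side, against 48.6% of all genes, and 8 had an unadjusted p under 0.05, all higher, against 4.86% of all genes, with a median log2 difference of 0.76. The summed level was 599, 236, 401 and 282 CPM in PRR RVLM-Null mice, against 245, 282, 355 and 293 CPM in WT mice. *Nlrc5*, the transactivator of MHC class I genes, was at 14.4, 3.19, 3.02 and 1.87 CPM in PRR RVLM-Null mice, against 0.909, 2.36, 2.92 and 2.03 CPM in WT mice (log2 difference 1.46, SE 0.55, unadjusted p = 0.0166, adjusted p = 0.44). *Tap1*, the peptide transporter, was at 15.3, 2.88, 5.296 and 3.82 CPM in PRR RVLM-Null mice, against 2.38, 2.53, 5.25 and 2.76 CPM in WT mice (log2 difference 1.08, SE 0.43, unadjusted p = 0.0225, adjusted p = 0.44). *H2-Q7*, an MHC class Ib gene, and *Psmb9*, an immunoproteasome subunit, differed by 1.503 and 1.16. The classical genes of this family are similar in sequence, so reads may be split among them. *B2m*, the light chain of MHC class I, was at 143, 61.97, 106 and 69.6 CPM in PRR RVLM-Null mice, against 63.8, 69.7, 94.4 and 92.3 CPM in WT mice and overlapped. Without replicate 1 of the PRR RVLM-Null mice, 0 of 19 had an unadjusted p under 0.05 and the median was 0.21. Without WT replicate 1 the count was 1, without WT replicate 4 it was 4, without WT replicate 2 it was 5 and without PRR RVLM-Null replicate 2 it was 13.

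Genes of reactive glia varied among mice of both groups. *Gfap*, the intermediate filament of reactive astrocytes, was at 596, 162, 281 and 167 CPM in PRR RVLM-Null mice, against 58.2, 139.8, 285 and 220.4 CPM in WT mice (log2 difference 0.78, SE 0.46, unadjusted p = 0.113, adjusted p = 0.586). PRR RVLM-Null replicate 1 was the highest and WT replicate 1 the lowest. *Cxcl10*, an interferon-induced chemokine, was at 2.04, 0.128, 0.308 and 1.79 CPM in PRR RVLM-Null mice, against 0.1398, 0.0815, 0.0749 and 0.324 CPM in WT mice (log2 difference 2.73, SE 1.200, unadjusted p = 0.0373, adjusted p = 0.469). Of 13 genes of reactive astrocytes, *Gfap* and *Cxcl10* among them, 11 were on the higher side (median 0.32, summed level 785, 254, 495 and 299.8 CPM in PRR RVLM-Null mice, against 177, 272, 467 and 372 CPM in WT mice). PRR RVLM-Null replicate 1 had the highest sum and WT replicate 1 the lowest. In addition, of 12 genes of activated microglia and phagocytosis 10 were on the higher side (median 0.46), against 48.6% of all genes. In each direction 1 member of that list had an unadjusted p under 0.05, against 4.86% higher and 5.22% lower of all genes. The lower was *Spp1*, which encodes osteopontin (-0.64, unadjusted p = 0.0313). Of 15 microglial genes 13 were on the higher side but with a median of 0.13. Of the 15, 0 had an unadjusted p under 0.05, against 10.1% of all genes. *Aif1*, which encodes Iba1, differed by 0.37 and *P2ry12*, a purinergic receptor of resting microglia, by -0.20. Among 18 lymphocyte genes, 16 were too low to be tested, the T cell receptor complex genes among them.

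Among markers of resting glia and vessels, astrocyte genes lay mostly on the lower side, and the other lists given here were near the WT level. Of 12 astrocyte genes, 9 were on the lower side, against 51.4% of all genes (median -0.12). On that side 2 had separate groups, against 4.39% of all genes, and 2 had an unadjusted p under 0.05, against 5.22%. Both times these were *S100b*, a calcium-binding protein, and *Gjb6*, a gap junction protein. *S100b* was at 314, 336, 326 and 283 CPM in PRR RVLM-Null mice, against 391, 387, 401 and 476 CPM in WT mice (log2 difference -0.39, SE 0.14, unadjusted p = 0.0118, adjusted p = 0.434). *Gjb6* was at 43.2, 32.8, 36.5 and 38.5 CPM in PRR RVLM-Null mice, against 48.4, 45.9, 52.5 and 52.2 CPM in WT mice (log2 difference -0.40, SE 0.16, unadjusted p = 0.0239, adjusted p = 0.445). The medians were 0.045 for 13 oligodendrocyte and myelin genes, 0.015 for 7 genes of oligodendrocyte precursors, -0.043 for 13 endothelial genes and -0.037 for 11 genes of pericytes and smooth muscle. Of these 4 lists, 0 members had an unadjusted p under 0.05, against 10.1% of all genes.

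Transcripts of cholinergic motor neurons differed widely among the punches. All 8 of their genes that were tested were on the lower side in PRR RVLM-Null mice, against 51.4% of all genes. The median log2 difference was -1.16. At an unadjusted p under 0.05 there were 0, against 5.22% of all genes on that side. The summed level was 1118, 35.97, 1139 and 496 CPM in PRR RVLM-Null mice, against 1896, 1903, 1684 and 1282 CPM in WT mice, and every PRR RVLM-Null library was below every WT library. Replicate 2 of the PRR RVLM-Null mice held the least by far. *Chat*, choline acetyltransferase, was at 127, 4.54, 124 and 53.7 CPM in PRR RVLM-Null mice, against 204, 203, 203 and 104 CPM in WT mice (log2 difference -1.21, SE 0.79, unadjusted p = 0.148, adjusted p = 0.624). *Slc5a7*, the choline transporter, was at 449.7, 11.1, 420.4 and 182 CPM in PRR RVLM-Null mice, against 758, 764, 695 and 666 CPM in WT mice (log2 difference -1.44, SE 0.83, unadjusted p = 0.104, adjusted p = 0.576). *Isl1*, a transcription factor of motor neurons, was at 11.8, 0.511, 12.7 and 4.99 CPM in PRR RVLM-Null mice, against 22.8, 25.5, 20.8 and 19.4 CPM in WT mice (log2 difference -1.55, SE 0.86, unadjusted p = 0.0914, adjusted p = 0.56). The groups were separate for *Slc5a7* and *Isl1* and overlapped for *Chat*, *Slc18a3*, the vesicular acetylcholine transporter (-1.399), and *Prph*, the filament peripherin (-1.11). Without replicate 2 of the PRR RVLM-Null mice all 8 were still on the lower side, with a median of -0.76.

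Neurofilament genes, which are highest in large projection neurons, lay on the same side. Of 12 general neuronal genes, 9 were on the lower side, against 51.4% of all genes. Of the 9, 5 had an unadjusted p under 0.05, against 5.22% of all genes on that side. On the higher side 1 had such a p, against 4.86% of all genes. Without PRR RVLM-Null replicates 2 or 4 the 5 became 3. *Nefh*, the heavy chain, was at 2106, 1564, 1968 and 1419 CPM in PRR RVLM-Null mice, against 3515, 3368, 3046 and 2573 CPM in WT mice (log2 difference -0.83, SE 0.28, unadjusted p = 0.00947, adjusted p = 0.434). *Nefm*, the medium chain, and *Nefl*, the light chain, differed by -0.97 and -0.84. *Stmn2*, a tubulin-binding protein of axons, was at 478, 304, 470.1 and 379 CPM in PRR RVLM-Null mice, against 621, 649.6, 629 and 635 CPM in WT mice (log2 difference -0.64, SE 0.20, unadjusted p = 0.00605, adjusted p = 0.434). *Tubb3*, neuronal beta-tubulin, differed by -0.59. In all 5 the groups did not overlap. Over the list the groups were separate for 6 on the lower side and 1 on the higher side, against 4.39% and 3.89% of all genes. *Snap25*, of the vesicle fusion machinery, was at 2391, 2487, 2543 and 2904 CPM in PRR RVLM-Null mice, against 2044, 2316, 2225 and 2623 CPM in WT mice (0.17, unadjusted p = 0.142). *Syt1*, the calcium sensor of transmitter release, was at 210.1, 227, 326 and 349.9 CPM in PRR RVLM-Null mice, against 90.3, 181, 164 and 206 CPM in WT mice (log2 difference 0.80, SE 0.32, unadjusted p = 0.025, adjusted p = 0.445). Without scaling factors 7 rather than 9 of the 12 were on the lower side.

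Inhibitory neuron genes lay the other way. Of 8 genes of GABAergic and glycinergic neurons, 7 were on the higher side, against 48.6% of all genes, and 5 had an unadjusted p under 0.05, all higher, against 4.86% of all genes, with a median log2 difference of 0.72. The summed level was 1268, 1840.0, 1155 and 1491 CPM in PRR RVLM-Null mice, against 793, 987, 993 and 1191 CPM in WT mice. Replicate 2 of the PRR RVLM-Null mice was the highest, WT replicate 1 the lowest, and the sums overlapped. *Slc6a5*, the glycine transporter, was at 516, 713, 469 and 621 CPM in PRR RVLM-Null mice, against 257, 381, 319 and 435 CPM in WT mice (log2 difference 0.74, SE 0.34, unadjusted p = 0.0444, adjusted p = 0.486). *Slc32a1*, the vesicular transporter of GABA and glycine, was at 149, 231, 135 and 178 CPM in PRR RVLM-Null mice, against 75.3, 115, 81.4 and 127 CPM in WT mice (log2 difference 0.80, SE 0.30, unadjusted p = 0.0163, adjusted p = 0.44). *Lhx1*, a transcription factor of inhibitory neurons, was at 6.17, 7.09, 5.604 and 4.83 CPM in PRR RVLM-Null mice, against 2.45, 3.34, 1.65 and 3.73 CPM in WT mice (log2 difference 1.09, SE 0.31, unadjusted p = 0.00277, adjusted p = 0.434). The groups were separate for these 3 and overlapped for *Gad1*, which makes GABA (0.82). Leaving out single libraries gave 1 to 6 members at an unadjusted p under 0.05, with 1 without WT replicate 1, 2 without WT replicate 2 or PRR RVLM-Null replicates 2 or 4, and 3 without WT replicate 3. *Slc17a6*, the vesicular glutamate transporter of excitatory hindbrain neurons, lay on the higher side, at 149.8, 216, 206 and 230.1 CPM in PRR RVLM-Null mice, against 107, 107, 109 and 157 CPM in WT mice (log2 difference 0.74, SE 0.23, unadjusted p = 0.00577, adjusted p = 0.434), with WT replicate 4 inside the range of PRR RVLM-Null mice.

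Genes of position in the hindbrain were on the higher side as well. Hox genes are expressed in nested domains from the hindbrain down the spinal cord, so their levels differ along its length. All 14 tested Hox genes were on the higher side, against 48.6% of all genes (median log2 difference 0.77). At an unadjusted p under 0.05 there was 1, against 4.86% of all genes on that side, and the groups were separate for 0. Their summed level was 88.9, 22.5, 76.5 and 117 CPM in PRR RVLM-Null mice, against 29.98, 52.4, 40.7 and 64.6 CPM in WT mice. Replicate 2 of the PRR RVLM-Null mice was the lowest of all 8 libraries and the other PRR RVLM-Null libraries were the 3 highest. *Hoxa2*, with the most rostral limit of the family, was at 4.33, 6.197, 4.74 and 5.46 CPM in PRR RVLM-Null mice, against 2.52, 3.01, 2.697 and 4.38 CPM in WT mice (log2 difference 0.72, SE 0.21, unadjusted p = 0.00364, adjusted p = 0.434). *Hoxb4* was at 4.77, 0.128, 2.59 and 7.096 CPM in PRR RVLM-Null mice, against 0, 1.63, 0.599 and 4.05 CPM in WT mice (1.23, unadjusted p = 0.228), and *Hoxc5* was at 3.499, 0.128, 2.09 and 4.99 CPM in PRR RVLM-Null mice, against 0.0699, 1.14, 0.974 and 2.35 CPM in WT mice (1.24, unadjusted p = 0.196), with replicate 2 nearly at 0 for both. Without replicate 2 of the PRR RVLM-Null mice, 7 of 14 had an unadjusted p under 0.05, against 6.15% of all genes in that fit, and the median was 1.07. Without PRR RVLM-Null replicate 4, 13 of the 14 were on the higher side, with a median of 0.52.

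The inferior olive, a nucleus of the ventral medulla near the RVLM, gave 7 of 8 genes on the higher side (median 0.69), against 48.6% of all genes. Of the 7, 2 had an unadjusted p under 0.05, against 4.86% of all genes on that side. These were *Hs3st2* and *Reln*, the secreted protein reelin, at 99.9, 70.2, 102 and 102 CPM in PRR RVLM-Null mice, against 46.4, 67.1, 61.3 and 66.5 CPM in WT mice (log2 difference 0.63, SE 0.20, unadjusted p = 0.00568, adjusted p = 0.434). *Crh*, corticotropin-releasing hormone, was at 4.64, 2.94, 4.25 and 13.7 CPM in PRR RVLM-Null mice, against 0.349, 1.79, 1.499 and 5.27 CPM in WT mice (1.52, unadjusted p = 0.142). The summed level was 149, 123, 152 and 162 CPM in PRR RVLM-Null mice, against 76.95, 102, 90.8 and 109 CPM in WT mice, without overlap. With the sex pattern as a term, 5 of the 8 were on the higher side. Cerebellar genes, of which 7 of 9 were on the higher side (median 0.49), were summed at 242, 390.1, 228 and 232 CPM in PRR RVLM-Null mice, against 234, 242, 235 and 235 CPM in WT mice, high only in PRR RVLM-Null replicate 2, while *Pcp2* and *Gabra6*, the defining genes of Purkinje and granule cells, were too low to test. Forebrain genes were low, with 6 of 11 not tested and 4 of the other 5 on the higher side (median 0.78). The part of punch content in any gene difference was not tested.

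**Figure D4:**
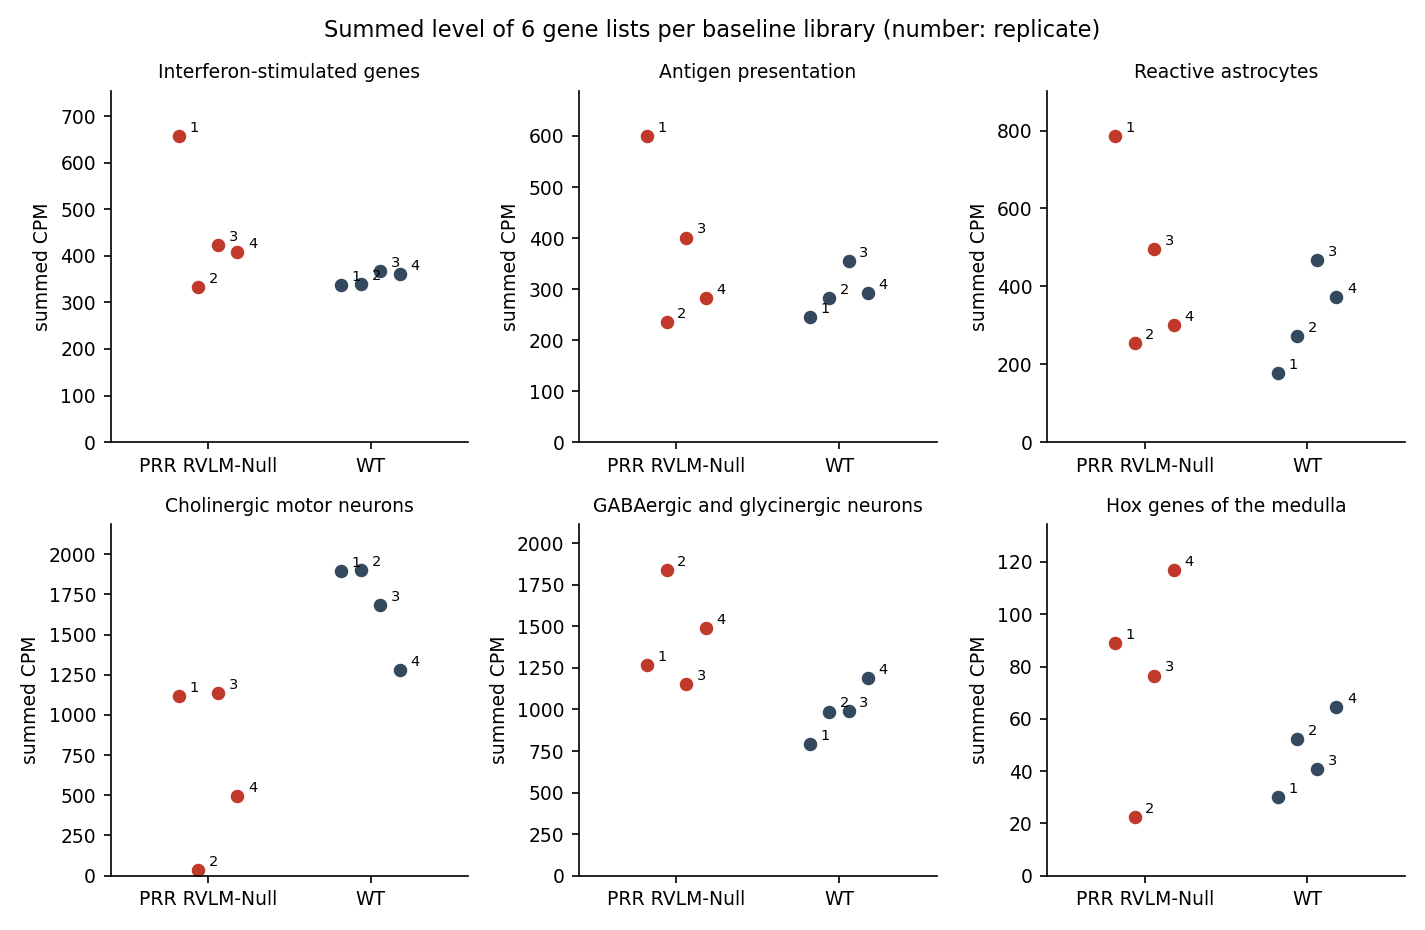
Summed CPM (vertical axes, from 0) of 6 gene lists in each baseline library, with PRR RVLM-Null left and WT right in each panel and the replicate number beside each point. Replicate 1 of the PRR RVLM-Null mice is highest for interferon-stimulated, antigen presentation and reactive astrocyte genes, and replicate 2 is lowest for motor neuron and Hox genes and highest for GABAergic and glycinergic genes.

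The renin-angiotensin system was examined by its receptors and enzymes. *Agtr1a*, the type 1 angiotensin II receptor, was at 0.891, 0.511, 0.924 and 1.48 CPM in PRR RVLM-Null mice, against 0.2796, 0.326, 0.525 and 0 CPM in WT mice (log2 difference 1.701, SE 0.84, unadjusted p = 0.0601, adjusted p = 0.506). PRR RVLM-Null replicate 2 was just below the highest WT library, so the groups overlapped. *Agtr2*, the type 2 receptor, was at 3.12, 3.71, 3.76 and 4.21 CPM in PRR RVLM-Null mice, against 5.73, 4.97, 5.39 and 6.97 CPM in WT mice, and every PRR RVLM-Null library was lower than every WT library (log2 difference -0.64, SE 0.24, unadjusted p = 0.0155, adjusted p = 0.44). *Ace*, which makes angiotensin II, and *Agt*, its precursor, differed by -0.55 and -0.24. *Mme*, the peptidase neprilysin, was at 9.67, 23.8, 16.2 and 18.6 CPM in PRR RVLM-Null mice, against 6.43, 8.39, 6.14 and 13.3 CPM in WT mice (log2 difference 0.999, SE 0.34, unadjusted p = 0.00993, adjusted p = 0.434). Of 10 genes of the system tested, 4 were on the higher side and 6 on the lower side. In each direction 1 had an unadjusted p under 0.05, against 4.86% higher and 5.22% lower of all genes. Renin itself (*Ren1*) was too low to be tested.

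Catecholamine genes were low in every punch. *Th*, tyrosine hydroxylase, was at 4.58, 6.84, 2.09 and 2.81 CPM in PRR RVLM-Null mice, against 3.01, 2.36, 0.899 and 1.62 CPM in WT mice (log2 difference 1.05, SE 0.41, unadjusted p = 0.0227, adjusted p = 0.44). *Dbh*, dopamine beta-hydroxylase, was at 7.95, 14.7, 3.82 and 4.37 CPM in PRR RVLM-Null mice, against 7.97, 4.81, 5.62 and 4.13 CPM in WT mice (log2 difference 0.45, SE 0.40, unadjusted p = 0.28, adjusted p = 0.732). Replicate 2 of the PRR RVLM-Null mice was the highest for both, and without it the *Dbh* difference was -0.060. *Pnmt*, which makes adrenaline and defines C1 neurons, was at 0.191, 0, 0.0616 and 0.234 CPM in PRR RVLM-Null mice, against 0, 0.244, 0 and 0 CPM in WT mice. The transcript that defines the best known neurons of the labelled region was thus near 0 in both groups. *Spr*, which makes the cofactor tetrahydrobiopterin, was at 30.2, 28.4, 28.9 and 25.7 CPM in PRR RVLM-Null mice, against 40.05, 35.9, 35.2 and 31.7 CPM in WT mice, with separate groups (log2 difference -0.34, SE 0.11, unadjusted p = 0.00843, adjusted p = 0.434). Of 16 genes of this list, 11 were on the higher side, against 48.6% of all genes. Of the 11, 3 had an unadjusted p under 0.05, against 4.86% of all genes on that side. *Th* was the only enzyme of catecholamine synthesis among the 3, which include *Slc17a6*, the glutamate transporter given above. *Spr* alone had such a p on the lower side, against 5.22% of all genes.

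For serotonin, *Tph2*, the synthetic enzyme, was at 1.34, 2.11, 2.59 and 1.33 CPM in PRR RVLM-Null mice, against 1.398, 1.96, 2.997 and 4.295 CPM in WT mice (log2 difference -0.51, SE 0.73, unadjusted p = 0.496, adjusted p = 0.852). *Slc6a4*, the serotonin transporter, and *Ddc*, aromatic amino acid decarboxylase, differed by -0.036 and -0.049. *Htr1a*, an inhibitory serotonin receptor, was at 16.99, 19.7, 18.8 and 20.5 CPM in PRR RVLM-Null mice, against 7.97, 12.9, 9.67 and 14.5 CPM in WT mice, with separate groups (log2 difference 0.76, SE 0.22, unadjusted p = 0.00288, adjusted p = 0.434). Of 12 genes of serotonergic neurons, 7 were on the higher side (median 0.11, and -0.11 without PRR RVLM-Null replicate 2).

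Among 21 neuropeptide genes, 13 were on the higher side (median 0.36), against 48.6% of all genes. Of the 13, 2 had an unadjusted p under 0.05, against 4.86% of all genes on that side. *Cck*, cholecystokinin, had the smallest p and was the 1 member with such a p on the lower side, against 5.22% of all genes. It was at 6.87, 4.15, 5.97 and 4.76 CPM in PRR RVLM-Null mice, against 14.1, 14.01, 12.4 and 10.3 CPM in WT mice, so each PRR RVLM-Null library held less than each WT library (log2 difference -1.22, SE 0.33, unadjusted p = 0.00176, adjusted p = 0.434). Immediate early genes, transcribed within minutes of neuronal activation, were mixed. *Egr1* was at 25.6, 32.7, 29.4 and 33.1 CPM in PRR RVLM-Null mice, against 14.96, 11.2, 18.96 and 15.97 CPM in WT mice (log2 difference 0.98, SE 0.24, unadjusted p = 0.000938, adjusted p = 0.434). *Fos* was at 13.7, 13.7, 12.7 and 13.6 CPM in PRR RVLM-Null mice, against 12.5, 8.798, 8.84 and 7.78 CPM in WT mice (log2 difference 0.50, SE 0.21, unadjusted p = 0.0268, adjusted p = 0.446). *Nr4a1* differed by 0.45, and *Jun* lay the other way (log2 difference -0.76, SE 0.31, unadjusted p = 0.0281, adjusted p = 0.451). Groups were separate for *Egr1*, *Fos* and *Junb* and overlapped for *Nr4a1* and *Jun*. Of 11 tested, 7 were on the higher side, against 48.6% of all genes. Of the 7, 3 had an unadjusted p under 0.05, against 4.86% of all genes on that side. On the lower side 1 had such a p, against 5.22% of all genes. Without WT replicate 3 the 3 became 1.

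Of 12 inflammatory genes tested, 8 were on the higher side (median 0.11), with 0 at an unadjusted p under 0.05, against 10.1% of all genes. *Nfkb1*, a subunit of NF-kappaB, was at 38.1, 31.4, 36.7 and 35.01 CPM in PRR RVLM-Null mice, against 37.9, 39.8, 31.02 and 32.5 CPM in WT mice (log2 difference 0.00048, SE 0.10, unadjusted p = 0.996, adjusted p = 0.999). *Nlrp3*, the inflammasome sensor, and *Cyba*, a subunit of NADPH oxidase, differed by 0.17 (adjusted p = 0.937) and -0.038 (adjusted p = 0.98). *Il18r1*, the interleukin 18 receptor, was below the filter, with raw counts of 8, 2, 2 and 1 in PRR RVLM-Null mice against 0 in each of the 4 WT libraries. Targets of Wnt signalling, in which PRR also takes part, were 5 on each side of 10 tested. For 14 genes of the unfolded protein and integrated stress responses the median was -0.032, and for 14 genes of DNA sensing and p53 it was -0.068. It was -0.18 for 5 genes of choroid plexus and ependyma and -0.096 for 5 of red blood cells. Of 13 mitochondrially encoded mRNAs 12 were on the lower side (median -0.37, and -0.18 without WT replicate 4). *mt-Atp6*, of the ATP synthase, was at 3.18, 3.39, 5.36 and 4.601 CPM in PRR RVLM-Null mice, against 8.18, 8.31, 5.54 and 13.6 CPM in WT mice (log2 difference -1.11, SE 0.47, unadjusted p = 0.0306, adjusted p = 0.456). Its annotated span overlaps that of *mt-Atp8* on the same strand, so its counts are uncertain. Mitochondrial ribosomal RNA, which these libraries retained, took 20.3% to 25.5% of counts in PRR RVLM-Null mice and 20.7% to 28.8% in WT mice, and its part in those values was not tested.

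The same contrast in the DOCA-salt cohort shares no sample with the baseline comparison, but cohort and DOCA-salt cannot be told apart in it. A male pattern of *Xist* and Y-linked genes was found in 2 of 3 DOCA-CRE and 1 of 4 DOCA-WT libraries. The DOCA-salt values given here come from a fit without a term for that pattern. Mitochondrial ribosomal RNA was 20.3% to 28.8% of counts at baseline, against 2.42% to 19.1% on DOCA-salt. Interferon-stimulated genes lay on the same side in both: 39 of 43 were on the higher side at baseline and 42 of 43 on DOCA-salt, where 54.3% of all genes were. The medians were 0.44 and 0.79. On DOCA-salt 25 of 43 had an unadjusted p under 0.05, against 14.4% of all genes. All lists compared here were chosen with earlier results of these data known, so such counts are a description and not independent evidence. The lists of Hox, inhibitory neuron, olive and motor neuron genes lay on opposite sides, while general neuronal genes had medians of -0.25 and -0.0036. Hox genes were on the higher side in 14 of 14 cases at baseline and 0 of 14 on DOCA-salt, with medians of 0.77 and -1.93. Inhibitory neuron genes were so in 7 and 0 of 8, olive genes in 7 and 1 of 8, and motor neuron genes in 0 and 8 of 8. The library labelled DOCA-CRE replicate 3 held 19.1% mitochondrial ribosomal RNA, more than any other of its cohort. Without it the DOCA-salt medians were 0.79 for interferon-stimulated genes, -2.85 for Hox genes and 1.05 for motor neuron genes.

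**Figure D5:**
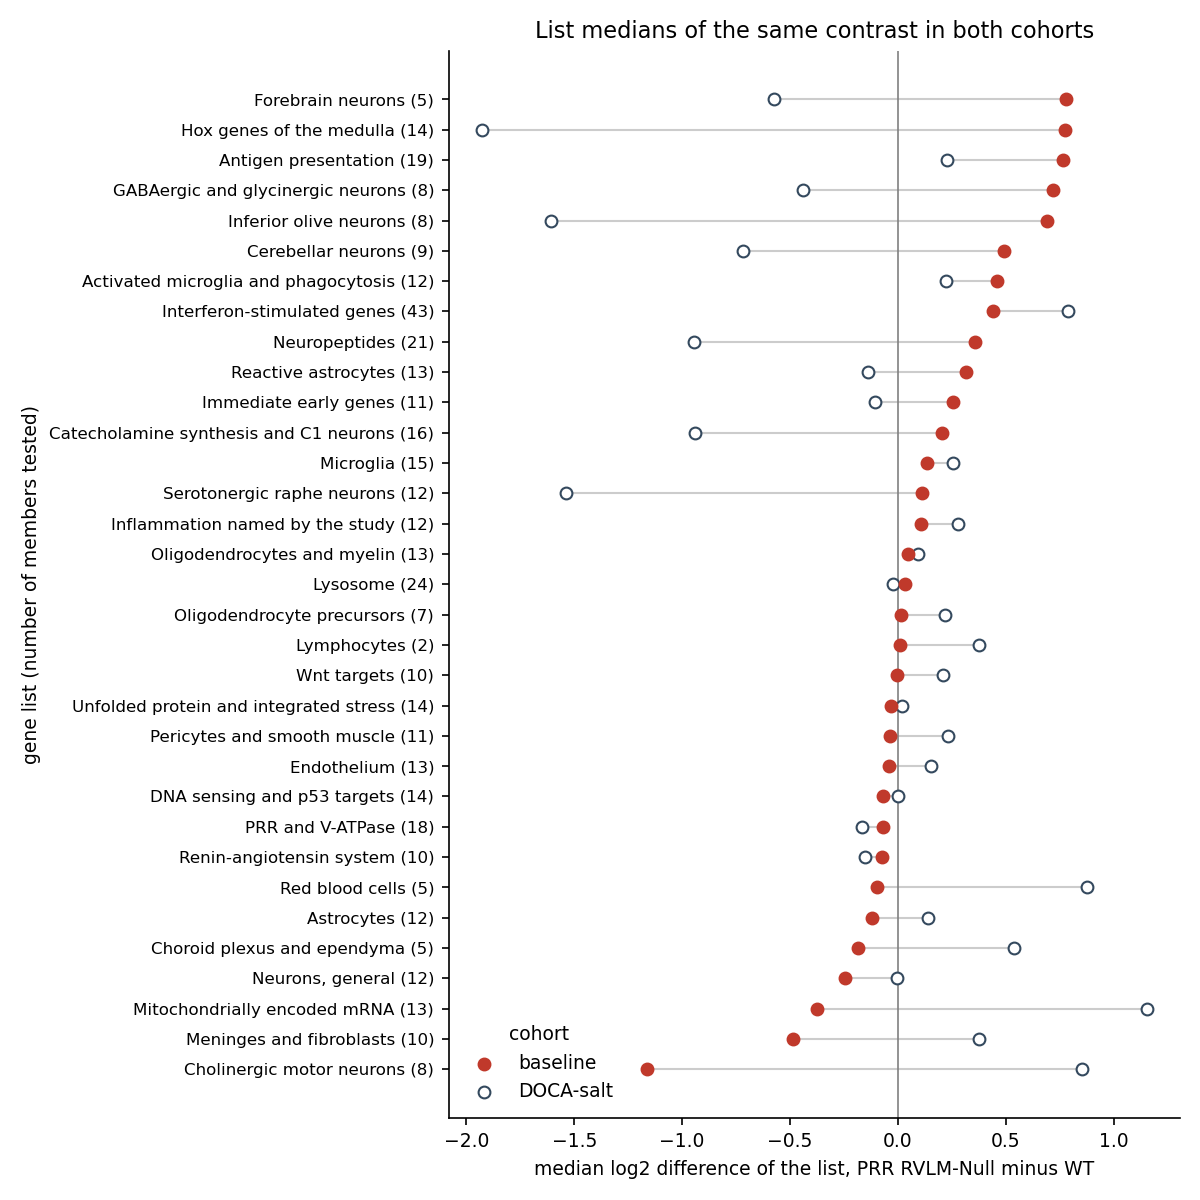
Median log2 difference, PRR RVLM-Null minus WT (horizontal axis), of 33 gene lists, with the number of members tested in brackets. Filled points are the baseline cohort and open points the DOCA-salt cohort. Hox, inferior olive, inhibitory neuron and motor neuron lists lie on opposite sides of 0 in the cohorts, and interferon-stimulated genes lie right of 0 in both.

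The difference between the 2 contrasts was tested gene by gene. It passed for 76 of 14852 genes (0.512%), by edgeR at an adjusted p of at most 0.05. Of 110 genes that the naming rules chose and the fit tested, 11 passed, and many of these were named for a small p at baseline, which favours a difference. *Celf4* differed by 0.55 at baseline and -0.74 on DOCA-salt (adjusted p of the difference 0.0196). *Reln* differed by 0.63 and -1.24 (0.0196), and *Htr1a* by 0.76 and -1.13 (0.0302). *Cbln1*, a synaptic organiser, differed by 0.86 and -1.66 (0.0358). For *Atp6ap2* the differences were -0.056 and -0.40, and the test between them gave an adjusted p of 0.393. These calls depended on several baseline libraries. Leaving out single baseline libraries gave 0 to 10 of the named genes, with 0 without PRR RVLM-Null replicates 3 or 4 or WT replicates 1 or 3, 4 without PRR RVLM-Null replicate 2 and 5 without WT replicate 2. Without DOCA-CRE replicate 3 there were 20.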

How the data were processed

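RNA from bilateral RVLM punches was sequenced in 15 libraries, 8 of them at baseline. Per the study's methods, libraries were made from TRIzol RNA by a low-input, strand-preserving SMART-seq kit, sequenced in pairs, aligned with STAR within MAPR-Seq to Gencode vM23, and tested with edgeR. The build in the submitters' processing notes is GRCm38.p6, and the read counter is not given in the sources used here. The authors deposited raw counts of reads, as whole numbers, for 55421 genes, with 0 columns left unmapped. Their tables of differential expression hold their own fold changes and adjusted p with the same counts and were not used. Kits that amplify cDNA without molecular identifiers count reads, not molecules.

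Of 21926 protein-coding genes, the 14852 above 1 CPM in 1 or more libraries were kept and scaled by TMM factors. They were fitted with 1 term per group over all 15 libraries in edgeR 4.0.16 under R 4.3.3 by quasi-likelihood, with a common biological coefficient of variation of 0.192. Calls needed a 2-fold difference and p of 0.05 or less after Benjamini-Hochberg adjustment across every gene tested, the limits of the study. The fit was tested on simulated data. The permutation test used log2(CPM + 1). DESeq2 1.42.0 and limma 3.58.1 were alternatives, with other scalings and filters, all biotypes, the baseline libraries alone, the replicate number or the sex pattern as a term, and each library left out. Groups follow the labels. Nothing says whether a library is 1 mouse, and the design text and methods differ on the size of the DOCA-salt groups, so p-values measure the spread between these libraries. No pair of libraries agreed within counting noise (chi-square of 5.48 or more per degree of freedom).

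Members and gene lists were chosen with earlier results of these data known. Genes named are *Atp6ap2*, 12 genes of the study, the 8 in each direction with the smallest p and the 5 with the largest difference at an unadjusted p under 0.05 (with groups not overlapping and the higher group averaging 1 CPM or more), up to 4 members of each of 34 lists with the smallest p, members a sentence is about, and sex-linked genes. No test was run over a list. Promoters are from RefSeq on GRCm38.p6, and spans from Gencode vM21, which held 99.9% of the genes tested. Of the genes these rules name, 2 are not reported here, though they stay in the counts.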

Additional observations from a re-analysis of the deposited data

Results flagged for a closer look

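In 33 of 288 groups of 4 libraries, each a gene or a summed list, the highest or lowest library stood apart by Dixon's criterion at 95%. Chance gives about 1 in 20 such groups, but the genes looked at include some chosen because 1 library was extreme (*Prg4*, *Myoc*, *Slc47a1* and *Rpl36al*), so nothing is read from the number. PRR RVLM-Null replicate 1 was the highest of its group for *Irgm1* at 43.4 CPM, *Irgm2* at 37.9, *Igtp* at 33.5, *Iigp1* at 32.2, *Nlrc5* at 14.4, *Gbp10* at 5.41 and *Psmb9* at 2.86 CPM, all genes induced by interferon. PRR RVLM-Null replicate 2 was the highest for *Hs3st2* at 12.8 CPM, *Ddc* at 9.65 CPM and the summed serotonergic (110.02 CPM) and cerebellar genes (390.1 CPM), and the lowest for *Reln* at 70.2 CPM. PRR RVLM-Null replicate 4 was the lowest for *Atp6v1g1* at 52.1 CPM and the highest for *Crh* at 13.7 CPM.

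WT replicate 4 was the highest for the meningeal genes *Prg4* at 15.2, *Myoc* at 9.16 and *Slc47a1* at 5.43 CPM, for *Etfbl* at 55.6, *S100b* at 476, *Slc17a6* at 157 and *Rpl36al* at 62.2 CPM, and for the summed stress (2010.0 CPM) and Y-linked genes (238 CPM). It was the lowest for *Chat* at 104, *Jun* at 78.8 and *Ifi27* at 22.6 CPM. WT replicate 3 was the highest for *Irgm1* at 13.7, *Cyba* at 5.77 and *Tap1* at 5.25 CPM, WT replicate 2 for *Ppef1* at 2.12 CPM, *Pnmt* at 0.244 CPM and the summed cerebellar genes at 242 CPM, and WT replicate 1 was the lowest for *Aif1* at 2.73 CPM.

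For 11 of the 110 genes that the naming rules chose, the PRR RVLM-Null against WT difference on DOCA-salt differed from that at baseline (edgeR, at an adjusted p of 0.05 or less). Among all genes tested it differed for 76 of 14852 (0.512%). Many of the 11 were named for a small p at baseline, which favours such a difference, so nothing is read from their number. The DOCA-salt difference minus the baseline one was -1.61 for *Lrrc55*, -2.16 for *Hs3st2*, -1.05 for *Megf11*, -1.64 for *Cadps2*, -1.104 for *Lrrc24*, -1.298 for *Celf4*, -1.87 for *Reln*, -2.52 for *Cbln1* and -1.89 for *Htr1a*, and it was 0.76 for *Etfb* and 0.77 for *Etfbl*, all on the log2 scale.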

How the results depend on the processing

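No gene was called by the limits used in the main fit or in any alternative with a test, and the number at an unadjusted p under 0.05 was 1498, against 2979 with limma voom and 913 to 1877 with single baseline libraries left out, lowest without PRR RVLM-Null replicate 2 and 939 without replicate 4. Of the 110 genes that the naming rules chose the difference between cohorts passed for 11, against 30 by DESeq2, 28 by the likelihood ratio test, 7 by limma voom, 20 without DOCA-CRE replicate 3 and 0 to 10 with single baseline libraries left out. The cause of these changes was not tested. Same-numbered libraries did not deviate together in every pair (correlations of -0.21 to 0.22, over 0.1 in 3 of 4 pairs), so the numbers were not taken to pair the mice. With the replicate number as a block 0 genes were called and 1408 had an unadjusted p under 0.05. The fit of the baseline libraries alone gave 2115 of 13966 genes at that p and no value for the difference between cohorts.

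Small differences changed direction. Without scaling factors the log2 difference was 0.0095 for *Atp6ap2*, 0.032 for *Cyba*, 0.019 for *Ddc* and 0.027 for *Slc6a4*. With the sex pattern as a term it was 0.028 for *Cyba*, 0.019 for *Ddc*, -0.017 for *Nfkb1* and 0.040 for *Slc6a4*. With limma voom it was -0.017 for *Atp6ap1*, 0.024 for *Cyba*, -0.041 for *Nfkb1* and 0.70 for *Slc6a4*, and under the replicate block 0.22 for *Slc6a4*. With single baseline libraries left out it spanned -0.016 to 0.035 for *Atp6ap1*, -0.092 to 0.0062 for *Atp6ap2*, -0.015 to 0.41 for *B2m*, -0.16 to 0.34 for *Cyba*, -0.060 to 0.68 for *Dbh*, -0.057 to 0.062 for *Nfkb1*, -0.24 to 0.53 for *Nlrp3* and -1.11 to 1.31 for *Slc6a4*, and -6.38 to 0.33 for *Myoc* and -5.73 to 0.89 for *Prg4*, highest for both without WT replicate 4. Of 680 list medians under the alternatives, 46 moved past their limit and 634 did not. Genes near or below 1 CPM, such as *Agtr1a*, *Pnmt* and *Gbp10*, rest on few reads per library.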

Other observations

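*Rpl36al*, a ribosomal protein gene noticed after its values were seen, was at 45.5, 37.4, 551 and 737 CPM in PRR RVLM-Null mice, against 36.6, 36.3, 35.2 and 62.2 CPM in WT mice (log2 difference 3.01, SE 0.71, unadjusted p = 0.000607, adjusted p = 0.434). PRR RVLM-Null replicates 3 and 4 were far above the other 6 libraries, and replicates 1 and 2 lay within the WT range. Replicates 3 and 4 were the PRR RVLM-Null libraries with a male pattern of *Xist* and Y-linked genes. The WT library with that pattern, replicate 4, was the highest of its group at 62.2 CPM but far below both. The cause of these levels was not tested. With the genes in 5 equal groups by gene length, the median log2 difference was -0.057 in the shortest and 0.031 in the longest. In 5 groups by mean CPM it was 0.037 in the lowest and -0.033 in the highest.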
